A study of Mus musculus with 29 samples.

Results

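The transcripts described here are 10 immediate early genes, taken as the rows of both count tables whose Ensembl identifier belongs to Jun, Junb, Jund, Fos, Fosb, Egr1, Ier2, Klf2, Klf4 or Dusp1. All 10 had a row in each table, among 38924 genes for blood stem and progenitor cells and 18194 genes for the niche. The mouse study asked how a bone marrow niche with less of the secreted signal WNT5A relates to regenerating blood stem cells, and all 29 libraries carry the strain label 129Ly5.1. LSK cells, the lineage-negative, Sca-1-positive, Kit-positive fraction that holds blood stem and progenitor cells, were profiled with Smart-seq2 after transplantation into a wild-type niche (LSK WT, 6 libraries) or a niche haploinsufficient for Wnt5a (LSK Wnt5a, 5 libraries). Endothelial (EC), osteoblastic (OBC) and mesenchymal (MSC) niche cells were sorted from the same 2 kinds of niche and profiled by UMI-seq, with 3 WT and 3 Wnt5a libraries for each population. In the Wnt5a niches 1 copy of the gene is lost, and the labels do not say whether this holds for every cell of the animal. For LSK, WT and Wnt5a name the niche that received the cells, so an LSK genotype below is that of the niche. Neither the age of the animals nor the number of cells per library is given in the labels, and they do not say whether libraries of a group came from separate animals, so p-values measure the spread between these libraries, which may be technical. Nor do they say whether the 3 populations were sorted from the same animals, and the fits treat the 18 niche libraries as independent.

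Immediate early genes are transcribed within minutes of a stimulus without new protein synthesis, because kinases of the MAPK pathways act on factors such as SRF with its ELK partners, CREB and MEF2 that are already present at their promoters. AP-1 is a dimer of a JUN protein with a FOS protein or with another JUN, and it carries the signal on to later genes. In vessels KLF2 and KLF4 are known as flow-induced factors of the endothelium, and DUSP1 closes the loop as a phosphatase that inactivates the MAP kinases. Transcripts of this class are also known to rise when tissue is dissociated and cells are handled.

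The start regions of 8 of the 10 genes were matched in a RefSeq table of promoters (GRCm38.p6), all but Egr1 and Ier2. Stretches of these regions are shown because these genes are grouped by the signals that reach them, and short motifs for those signals can be read in them. In the 250 bases before the start, the core TGACG of the cyclic AMP response element (CRE, bound by CREB and related factors) occurred on either strand in 6 of the 8 (Junb, Fos, Fosb, Klf2, Klf4 and Dusp1), against 17.8% of all 32851 windows in the table. The whole palindrome TGACGTCA, which contains that core on both strands, was found in Dusp1 and in 1.55% of all windows. The related octamer TGANNTCA was found in Jun, Jund and Dusp1 (where it is the palindrome itself) and in 11.9% of all windows. A MEF2 element, searched on either strand, was found in Jun and Klf2 (0.508% of all windows), and TATAAA, read in the direction of transcription only, in Fos (7.59%). The AP-1 heptamer TGANTCA (6.75% of all windows) and the CArG box (1.47%), both searched on either strand, had no match in the 8 windows. Bases farther upstream were not searched, so a site there would not be seen. The matches, with 15 bases kept on each side where the window allowed, are in capitals below, 5′ to 3′ along the gene. The Jund window belongs to a RefSeq start that lies upstream of the start in the GENCODE annotation. The Dusp1 window belongs to a RefSeq start (chr17:26508472, minus strand) far downstream of the GENCODE start at 26562128.
Jun: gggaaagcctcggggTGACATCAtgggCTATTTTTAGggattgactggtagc
Junb: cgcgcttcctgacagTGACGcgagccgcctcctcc
Jund: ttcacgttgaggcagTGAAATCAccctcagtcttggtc
Fos: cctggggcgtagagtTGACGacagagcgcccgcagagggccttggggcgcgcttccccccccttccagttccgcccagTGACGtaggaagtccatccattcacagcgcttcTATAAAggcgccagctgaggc
Fosb: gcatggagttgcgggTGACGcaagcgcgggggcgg
Klf2: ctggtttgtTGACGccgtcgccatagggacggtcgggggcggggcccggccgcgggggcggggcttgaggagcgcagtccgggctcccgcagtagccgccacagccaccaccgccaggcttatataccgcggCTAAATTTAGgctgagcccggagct
Klf4: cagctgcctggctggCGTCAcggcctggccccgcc
Dusp1: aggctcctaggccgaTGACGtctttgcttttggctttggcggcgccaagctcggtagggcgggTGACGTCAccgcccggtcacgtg

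These stretches lie at chr4:95052231-95052282 (minus strand), chr8:84978835-84978869 (minus strand), chr8:70697663-70697700 (plus strand), chr12:85473746-85473877 (plus strand), chr7:19310086-19310120 (minus strand), chr8:72318812-72318968 (plus strand), chr4:55532688-55532722 (minus strand) and chr17:26508593-26508678 (minus strand). In the Jun stretch the 2 capital blocks are the octamer and then the MEF2 element. In Klf2 the first block is the CRE core and the second the MEF2 element, and in Fos the last block is TATAAA after 2 CRE cores. The Klf4 core lies on the opposite strand and reads CGTCA here. In Dusp1 a single core precedes the palindrome. A match is a description of letters only, and binding was not measured.

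LSK libraries held 1254553 to 5775459 reads and niche libraries 10635 to 117989 UMIs, with OBC the shallowest, so that 3 UMIs stood for 273 CPM in OBC WT 9. CPM here are reads or UMIs scaled to equal library totals after TMM correction. EC markers summed to 9128 to 12219 CPM in EC WT and 9218 to 12218 in EC Wnt5a, but also to 10088 to 11489 in MSC WT and 5355 to 7262 in MSC Wnt5a, and 0 of 9 tested EC markers passed the test between EC and MSC. The MSC WT sums lay inside the EC WT range and the MSC Wnt5a sums below it. MSC markers summed to 5255 to 6612 CPM in MSC WT and 5832 to 9467 in OBC WT, above the 2161 to 2582 of EC WT, and OBC markers to 4647 to 18086 in OBC WT, with Dmp1 at 0. One library, EC WT 14, stood apart with 280182 CPM of erythroid markers, against 16589 to 123781 in the other 17. In sorted bulk samples, fewer cells of a type and less RNA per cell cannot be told apart.

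Jund, which encodes the JUN protein usually present before stimulation, rose in the Wnt5a niche when the genotype difference was averaged over EC, OBC and MSC, by 0.96 on the log2 scale (SE 0.25, adjusted p = 0.02, edgeR's quasi-likelihood test). It was the only one of the 10 genes to pass in that comparison, against 2.82% of 1099 tested genes (2.18% higher). All but Dusp1 had a positive difference (9 of 10), with a median of 0.42 against -0.041 over all tested genes. Within single populations 0 of 10 passed, against 0.364% of tested genes in EC (all higher), 1% in OBC (0.091% higher, 0.91% lower) and 0.455% in MSC (0.273% higher, 0.182% lower). DESeq2 and limma voom also called 0 in each of them. Of all tested genes DESeq2 called 6 of 1099 in EC, 11 of 460 in OBC and 36 of 524 in MSC. The counts of limma voom were 6, 9 and 11 of 1099. At an unadjusted p under 0.05 by edgeR there were 1 of 10 in EC, 2 in OBC and 1 in MSC, against 89, 96 and 203 of 1099 genes. The differences were positive for 9 of 10 genes in EC (median 0.69, all genes -0.057), 8 in OBC (median 0.45, all genes 0.0026) and 7 in MSC (median 0.18, all genes -0.026). Every Wnt5a library lay above every WT library for 0 of 10 genes in EC, 3 in OBC (Fos, Klf4 and Ier2) and 1 in MSC (Jund), against 5.64%, 7.19% and 13% of tested genes. Every Wnt5a library lay below for 0 of 10 in each, against 8.46%, 6.01% and 12.7%. The 10 genes of a library share its depth and scaling, so their differences are not independent of each other.

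**Figure D1:**
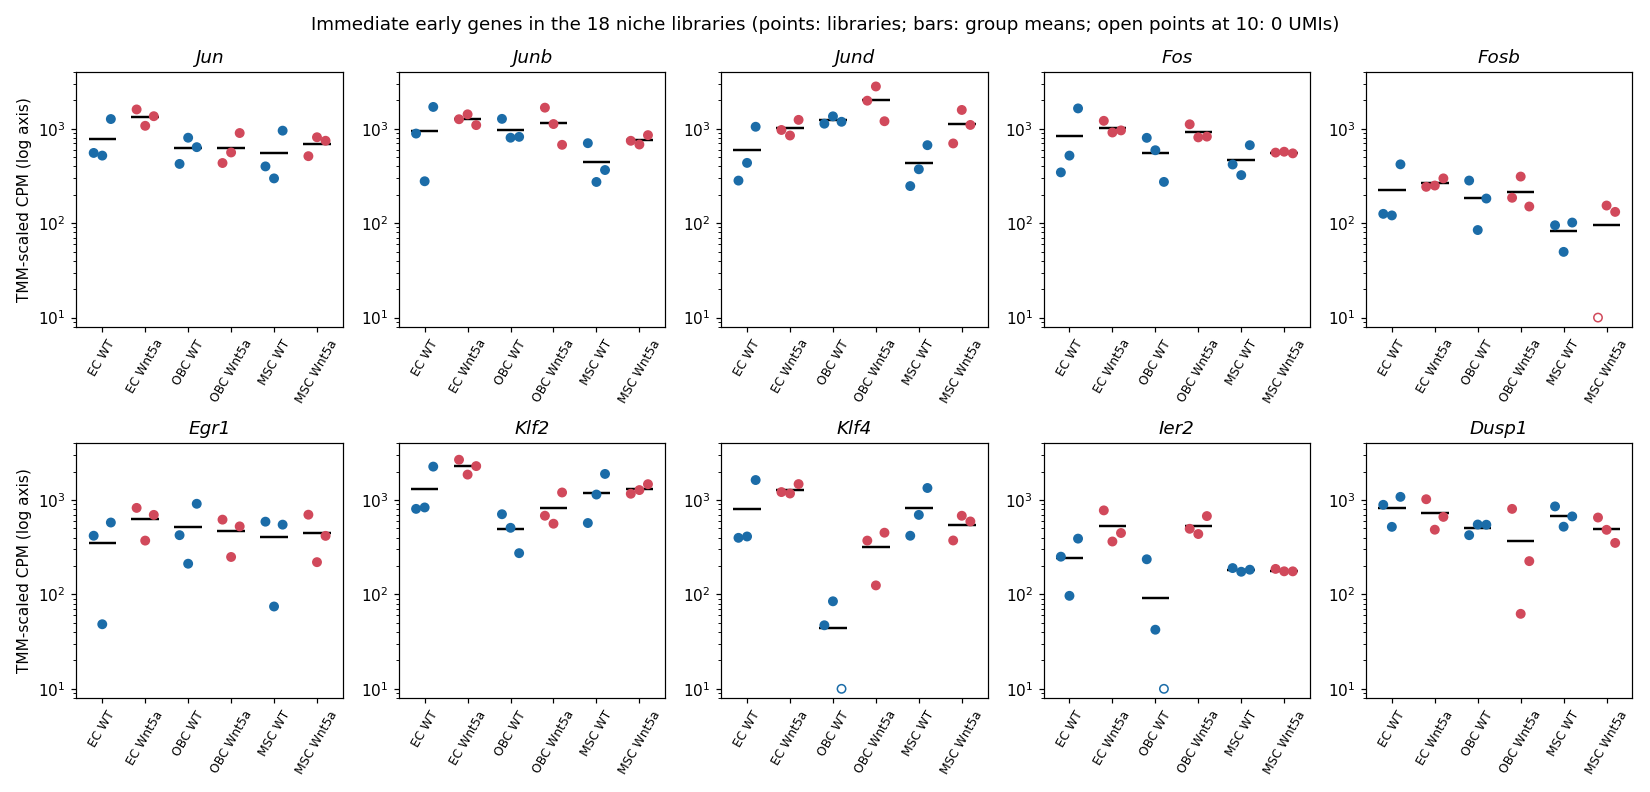
TMM-scaled CPM on a log axis of the 10 genes in the 18 niche libraries, by population and genotype (WT blue, Wnt5a red). Points are libraries, bars are group means, and open points at 10 stand for 0 UMIs; EC WT 15 is the high WT point in most EC groups, and Klf4 and Ier2 are lowest in OBC WT.

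Among the JUN genes, Jund was the only one whose groups separated in a single population, MSC. Its CPM was 247, 372 and 669.6 in the 3 MSC WT libraries and 698, 1580.3 and 1097 in the 3 MSC Wnt5a libraries, a log2 difference of 1.41 (SE 0.44, adjusted p = 0.0804). The groups did not overlap, MSC WT 3 coming close to the lowest Wnt5a library. It passed when MSC was fitted alone (1.47, adjusted p = 0.0026) and in the joint fit without EC WT 14 (1.39, adjusted p = 0.0394), settings under which 77 of 705 and 38 of 1224 tested genes passed. In OBC, Jund stood at 1130.4, 1352 and 1185 CPM in WT and 1981, 2802 and 1200.3 in Wnt5a. The lowest Wnt5a library lay within the WT range, and the difference was 0.71 (SE 0.44, adjusted p = 0.679). In EC it stood at 282, 435 and 1049 in WT and 969.7, 847 and 1241 in Wnt5a, a difference of 0.77 (SE 0.40, adjusted p = 0.59), with EC WT 15 among the Wnt5a libraries. The averaged Jund call was lost without a low-count filter (0.88, adjusted p = 0.125) and without any one of 7 libraries (MSC WT 1, MSC WT 2, OBC WT 7, EC WT 13, MSC Wnt5a 5, OBC Wnt5a 11 or EC Wnt5a 18), where its value was 0.81 to 0.92 with an adjusted p of 0.0552 to 0.0838. Of Jund's 1668 exon bases (chr8:70698949-70700616, plus strand), 877 are also exon of the antisense gene Gm11175, which had 0 counts in both tables. How reads in such overlaps were assigned is not given in the sources used here.

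Jun, the main transactivating subunit of AP-1, had 554, 519 and 1266 CPM in EC WT and 1600, 1073 and 1357 in EC Wnt5a. WT 13 and WT 14 lay below every Wnt5a library and WT 15 among them, and the difference was 0.74 (SE 0.38, adjusted p = 0.583). In OBC its CPM was 424, 803 and 638 in WT and 433, 560.4 and 900.2 in Wnt5a, and in MSC 399, 298 and 954 and 512, 812 and 746. The groups overlapped in both populations, with a log2 difference of -0.0025 in OBC (adjusted p = 0.997) and 0.34 in MSC (SE 0.42, adjusted p = 0.697). Averaged over the niche, the Jun difference was 0.36 (SE 0.25, adjusted p = 0.494). Junb, a JUN family member that can restrain JUN, had 888, 278 and 1701 CPM in EC WT and 1261, 1421 and 1092 in EC Wnt5a, so that the Wnt5a libraries fell inside the WT range. In MSC it was at 703, 273 and 365 in WT and 745, 680.4 and 855 in Wnt5a, where 2 of 3 Wnt5a libraries exceeded every WT library (0.75, SE 0.46, adjusted p = 0.39). In OBC the values were 1272, 803 and 820.1 and 1671, 1121 and 675, with Wnt5a libraries both above and below the WT range. The averaged Junb difference was 0.46 (SE 0.26, adjusted p = 0.376).

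The FOS genes, whose proteins form AP-1 with a JUN protein, did not pass in any population. Fos had 801, 592 and 273 CPM in OBC WT and 1114, 809.5 and 825 in OBC Wnt5a, and the groups did not overlap. The difference was 0.64 (SE 0.50, adjusted p = 0.792), the highest WT and the lowest Wnt5a library being almost equal. In EC it had 345, 519 and 1641 in WT and 1212, 912 and 959.8 in Wnt5a, all 3 Wnt5a values lying between WT 14 and WT 15. The MSC values were 418, 323 and 669.6 in WT and 559, 571 and 548 in Wnt5a, the latter almost the same in each library and inside the WT range. Averaged, the Fos difference was 0.38 (SE 0.26, adjusted p = 0.477). Fosb rested on few molecules outside EC, with 0 to 7 UMIs in each OBC and MSC library. Its CPM was 125, 121 and 419.6 in EC WT and 242, 250.2 and 298 in EC Wnt5a, again with WT 15 highest and the other WT libraries lowest. The Fosb difference was 0.21 (SE 0.48, adjusted p = 0.929) in EC and 0.29 (SE 0.38, adjusted p = 0.769) averaged, and at 0 to 7 UMIs a difference in OBC or MSC alone was hardly detectable.

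**Figure D2:**
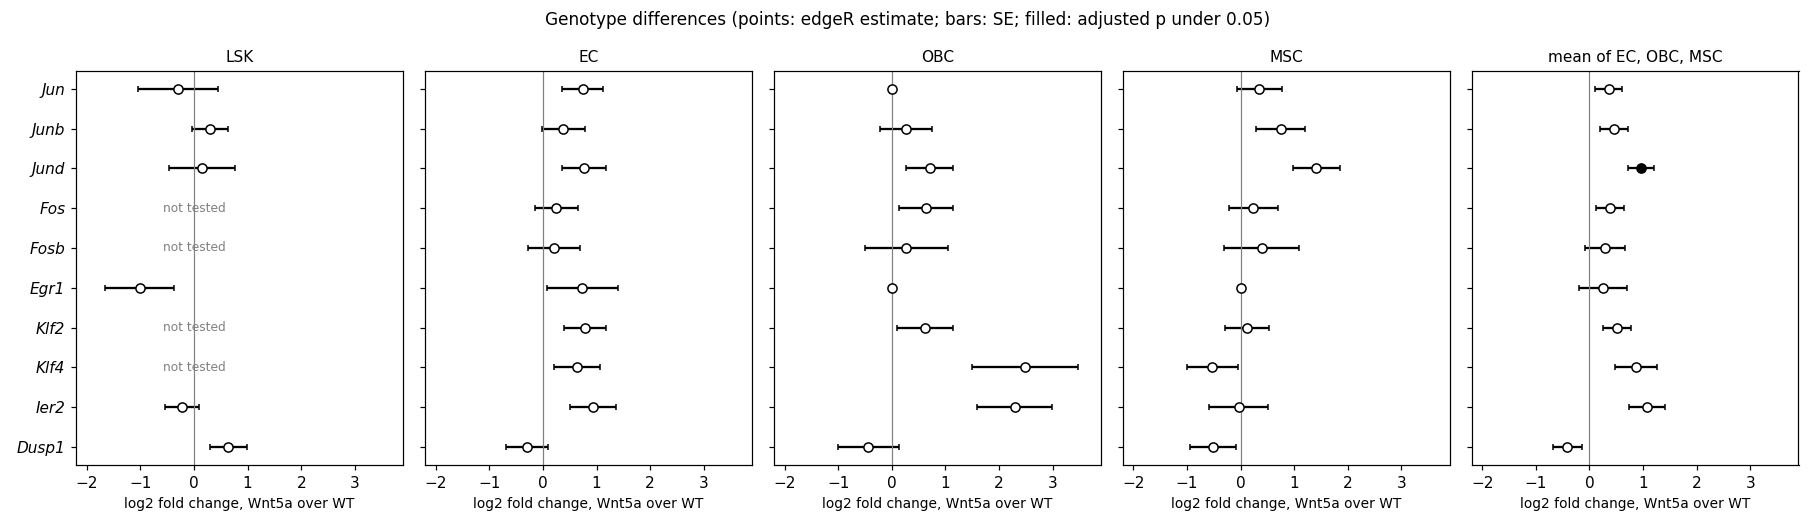
Log2 fold changes of Wnt5a over WT with their SE (bars; left out where the change is under 0.02 in size) for LSK, EC, OBC, MSC and the mean of the 3 niche populations. Filled points passed an adjusted p of 0.05: only Jund in the averaged comparison, at 0.96, did so, and Klf4 and Ier2 lie farthest to the right in OBC.

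Of the zinc-finger factors, Klf2 and Klf4 were lowest in the same 2 EC libraries. Klf2, an endothelial factor induced by laminar flow, had 805, 833 and 2255 CPM in EC WT and 2667, 1856 and 2284 in EC Wnt5a (0.78, SE 0.39, adjusted p = 0.583). Klf4, its close relative, had 397, 411 and 1626 in WT and 1212, 1170.3 and 1473 in Wnt5a (0.64, SE 0.43, adjusted p = 0.717). For both genes WT 13 and WT 14 were far below the Wnt5a libraries while WT 15 lay among them for Klf2 and above them for Klf4. In OBC, Klf4 was counted at 1, 2 and 0 UMIs in WT and 6, 2 and 6 in Wnt5a, that is 47.1, 84.5 and 0 against 371, 125 and 450.1 CPM. The groups did not overlap, but every WT library was under the floor of 3 UMIs and the difference of 2.49 (SE 0.99, 95% interval 0.49 to 4.49) did not pass (adjusted p = 0.334). In MSC, Klf4 lay in the other direction, with 418, 695 and 1339 in WT and 372, 680.4 and 592 in Wnt5a, although the groups overlapped (-0.53, SE 0.47, adjusted p = 0.592). Klf2 in MSC spread from 570.0 to 1887 CPM in WT and from 1164 to 1469 in Wnt5a, the second range lying inside the first. In OBC it was at 706, 507 and 273 in WT and 681, 560.4 and 1200.3 in Wnt5a (0.62, SE 0.53, adjusted p = 0.808). The averaged differences were 0.51 (SE 0.26, adjusted p = 0.314) for Klf2 and 0.87 (SE 0.40, adjusted p = 0.25) for Klf4.

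Egr1, a growth-factor-induced activator, varied more between libraries of a group than between genotypes. Its CPM was 418, 48.3 and 577 in EC WT and 824, 371 and 695 in EC Wnt5a. In MSC WT it was 589, 74.4 and 548, with MSC WT 2 far below the others, and 698, 219 and 417 in MSC Wnt5a. OBC libraries gave 424, 211 and 911 in WT and 619, 249 and 525 in Wnt5a. The groups overlapped in all 3 populations, and the averaged difference was 0.25 (SE 0.44, adjusted p = 0.837), with a 95% interval of -0.68 to 1.18.

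Ier2, a small nuclear protein of the early response, had the largest averaged difference of the 10 genes and did not pass the test. In OBC it was counted at 5, 1 and 0 UMIs in WT and 8, 7 and 9 in Wnt5a, or 235, 42.3 and 0 against 495, 436 and 675 CPM, with no overlap. The OBC difference was 2.29 (SE 0.70, 95% interval 0.90 to 3.69, unadjusted p = 0.00177, adjusted p = 0.108). It was 1.77 without OBC WT 8 and 4.07 without OBC WT 7. EC libraries gave 251, 96.6 and 389.6 in WT and 776, 363 and 447 in Wnt5a, with 2 of 3 Wnt5a libraries above every WT library (0.94, SE 0.43, adjusted p = 0.515). In MSC all 6 libraries stood between 174 and 190.0 CPM, the narrowest range of any of the 10 genes there, at 4 to 10 UMIs each. Averaged, the Ier2 difference was 1.07 (SE 0.33, adjusted p = 0.0601). It passed in 3 of 23 alternatives: with limma voom (1.20, adjusted p = 0.0357), without OBC WT 7 (1.64, adjusted p = 0.0268) and without EC WT 15 (1.21, adjusted p = 0.0237). In these, 41 of 1099, 17 of 1507 and 48 of 1214 tested genes passed. With 1 library left out the adjusted p of Ier2 reached 0.213.

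Dusp1, the phosphatase, was the one gene with a negative difference in every niche population, and in none did it pass. It had 888, 519 and 1079 CPM in EC WT and 1018, 484 and 662 in EC Wnt5a (-0.29, SE 0.40, adjusted p = 0.889). In MSC it had 855, 521 and 669.6 in WT and 652, 483 and 351 in Wnt5a (-0.51, SE 0.43, adjusted p = 0.563). OBC WT libraries were close together at 424, 549 and 547, whereas OBC Wnt5a libraries spread over 805, 62.3 and 225 (-0.44, SE 0.57, adjusted p = 0.898). The groups overlapped in each population. The averaged difference was -0.42 (SE 0.27, adjusted p = 0.454), with a 95% interval of -0.96 to 0.13.

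Differences in the genotype effect between populations were tested for all 10 genes, and 0 passed the interaction test of edgeR (background 0.455% of tested genes; 2 of 10 at an unadjusted p under 0.05, against 92 of 1099). These 2 were Klf4 (adjusted p = 0.516) and Ier2 (adjusted p = 0.567). The OBC effect minus the MSC effect was 3.02 (SE 1.10, adjusted p = 0.304) for Klf4 and 2.33 (SE 0.90, adjusted p = 0.352) for Ier2. DESeq2 called 0 and limma voom 0, against 8 of 822 and 5 of 1099 tested genes. Without EC WT 15 edgeR called 1, Klf4 (adjusted p = 0.00584), where 11 of 1214 tested genes passed.

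**Figure D3:**
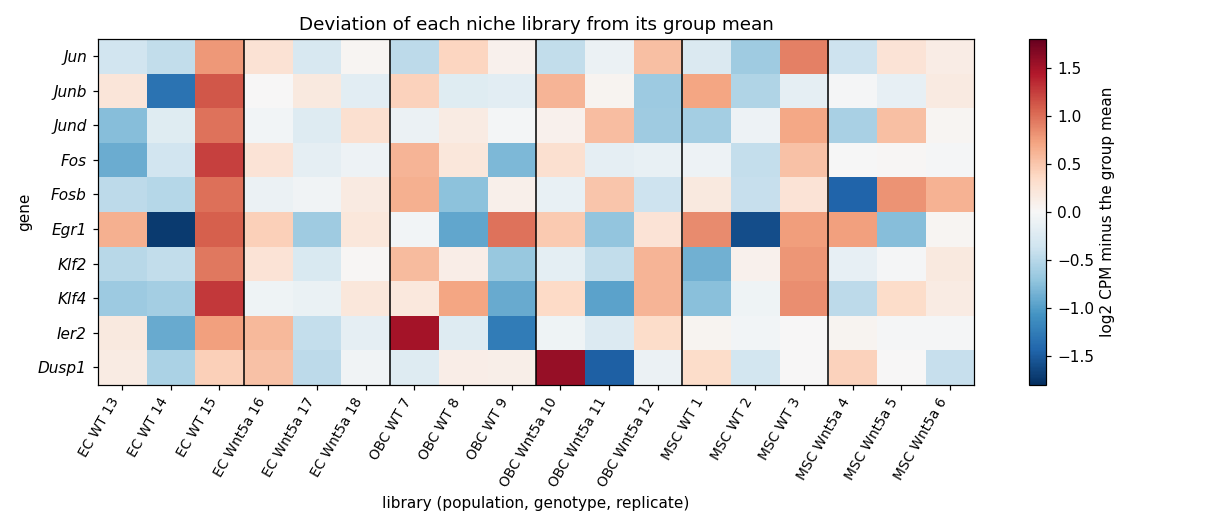
Log2 CPM of each gene in each niche library minus the mean of its group (red above, blue below), libraries in columns and genes in rows. EC WT 15 is above its group mean for all 10 genes and EC WT 14 below for all 10, whereas most other columns hold both colours.

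In the EC WT group all 10 genes were high in 1 library and low in another. EC WT 15 lay above its group mean for 10 of 10 genes, by 0.96 on average on the log2 scale, and EC WT 14 for 0 of 10, with an average of -0.71. MSC WT 3 was above its mean for 9 of 10 genes (average 0.46) and MSC WT 2 for 1 (average -0.41). As a summed share of all UMIs the 10 genes took 0.329%, 0.569% and 1.36% of the EC WT libraries and 1.02%, 1.11% and 1.31% of the EC Wnt5a libraries, lowest to highest, so the highest share of the 6 was that of a WT library. In OBC the shares were 0.4% to 0.498% in WT and 0.643% to 0.755% in Wnt5a, without overlap, and in MSC 0.423% to 0.799% and 0.6% to 0.626%, the second range inside the first. The EC comparison turned on which WT libraries entered. Without EC WT 15, 3 of 10 genes passed in EC, where 24 of 1214 tested genes then passed: Jund (1.58, adjusted p = 0.028), Klf2 (1.50, adjusted p = 0.028) and Klf4 (1.73, adjusted p = 0.0107). Without EC WT 13 or EC WT 14, the 2 low WT libraries, 0 of 10 passed (3 of 1209 and 3 of 1224 tested genes), and Jund, Klf2 and Klf4 stood at 0.45, 0.53 and 0.31 without EC WT 13 and at 0.59, 0.53 and 0.33 without EC WT 14. Jun and Ier2 stood at 0.51 and 0.56 without EC WT 14. Nothing in the labels sets any of the 3 aside, and all were kept.

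Markers of other cells moved with genotype beside these genes. Neutrophil markers, all 10 of which were detected in at least 1 library of each group, summed to 282 to 465 CPM in EC WT and 1357 to 2421 in EC Wnt5a, to 3109 to 5706 and 6452 to 10212 in OBC, and to 1117 to 1359 and 2421 to 3973 in MSC. The Wnt5a range lay above the WT range in each population, and 4 of 5 tested neutrophil markers rose in the averaged comparison. OBC markers summed to 4647 to 18086 in OBC WT and 2101 to 5355 in OBC Wnt5a, with Dmp1 at 0 in the first group and Runx2 in the second, and 2 of 4 tested ones fell. EC markers were lower in MSC Wnt5a than in MSC WT (sums above), although 0 of 9 passed. Macrophage markers were near 0, at no more than 125 CPM in any niche library. The part of these markers in the Jund, Ier2 and Klf4 values was not tested. Leaving haemoglobin, immunoglobulin, neutrophil granule and mitochondrial genes out of the totals kept Jund past the test in the averaged comparison (0.97, adjusted p = 0.026), where 29 of 1133 tested genes passed. Such a change alters only the scaling and the genes tested. It would not take away Jund RNA of other cells, so it does not bear on their part.

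Klf4 and Klf2 were lower in OBC than in EC and MSC, and Jund was higher in OBC than in both. With both genotypes weighted equally, Klf4 averaged 1048 ± 527 CPM in EC (SD, n = 6), 683 ± 348 in MSC and 179.6 ± 185 in OBC. It was 2.97 log2 units higher in EC than in OBC (SE 0.49, adjusted p = 5.57e-06) and lower in OBC than in MSC, at -2.37 (SE 0.51, adjusted p = 0.000501). Klf4 in OBC was counted at 0 to 2 UMIs per WT library and 2 to 6 per Wnt5a library, around the floor of 3 UMIs. The size of both differences is therefore a low-count estimate. The EC and MSC levels of Klf4 did not differ beyond their spread (0.60, SE 0.32, adjusted p = 0.39). Klf2 had the same order, with 1783 ± 789.8 in EC, 1251 ± 433 in MSC and 655 ± 309 in OBC. The difference between EC and OBC was 1.40 (SE 0.33, adjusted p = 0.000394) and that between OBC and MSC -0.95 (SE 0.33, adjusted p = 0.0226), while EC and MSC differed by 0.45 (SE 0.28, adjusted p = 0.487). Jund had another order, with 1608 ± 664 in OBC against 804 ± 371 in EC and 777 ± 492 in MSC. It was lower in EC than in OBC (-1.01, SE 0.30, adjusted p = 0.00484) and higher in OBC than in MSC (1.16, SE 0.31, adjusted p = 0.00333), and EC and MSC did not differ beyond their spread (0.15, SE 0.30, adjusted p = 0.853). The Klf2 call between OBC and MSC was lost with WT libraries alone (-1.20, adjusted p = 0.0526) and without OBC WT 8, OBC WT 9, MSC WT 3, OBC Wnt5a 11 or MSC Wnt5a 6 (adjusted p = 0.0557 to 0.104). Without a low-count filter Jund passed neither between EC and OBC (-0.39, adjusted p = 0.538) nor between OBC and MSC (0.73, adjusted p = 0.237), and with WT libraries alone its call between EC and OBC was lost (-1.04, adjusted p = 0.0528).

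In all, 4 of 10 genes passed between EC and OBC, 3 higher and 1 lower, where 48% of tested genes passed (28.4% higher, 19.6% lower), so the share of members was not above the background. Between OBC and MSC 4 of 10 passed, 2 higher and 2 lower, against 32.3% of tested genes (12.9% and 19.4%). Between EC and MSC 0 of 10 passed, against 3.55%, with 5 of 10 at an unadjusted p under 0.05 (162 of 1099 genes). DESeq2 and limma voom also called 0 of 10 there, against 41 and 45 of 1099 tested genes. All 10 differences between EC and MSC were positive, with a median of 0.65 against 0.036 over all genes. These 3 comparisons share libraries.

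The remaining calls were at the edge of the threshold. Dusp1 averaged 775 ± 256 CPM in EC, 589 ± 175 in MSC and 435 ± 263 in OBC, and was higher in EC than in OBC by 0.80 (SE 0.34, adjusted p = 0.0491). That call was lost with WT libraries alone (0.73, adjusted p = 0.207), with the blood and mitochondrial genes left out of the totals, and without OBC WT 7, OBC WT 8, OBC WT 9, EC WT 15, OBC Wnt5a 11 or OBC Wnt5a 12 (adjusted p = 0.058 to 0.152). Junb averaged 1107 ± 492 in EC, 1060.3 ± 373 in OBC and 604 ± 230.3 in MSC, and was higher in OBC than in MSC by 0.86 (SE 0.34, adjusted p = 0.044), a call lost under 5 settings (RLE scaling, no filter, DESeq2, limma voom and WT libraries alone, with an adjusted p of up to 0.649). It was also lost in 11 of 18 omissions of 1 library, namely OBC WT 7, MSC WT 2, MSC WT 3, MSC Wnt5a 4, 5 and 6, OBC Wnt5a 10 and 11 and EC Wnt5a 16, 17 and 18 (adjusted p of 0.0521 to 0.192). The Junb levels of EC and OBC did not differ beyond their spread (difference 0.049, SE 0.32, adjusted p = 0.901, 95% interval -0.59 to 0.69), and EC and MSC differed by 0.91 (SE 0.31, adjusted p = 0.0916). Jun averaged 1062 ± 441 in EC, 626 ± 194 in OBC and 620.0 ± 256 in MSC. Its difference between EC and OBC was 0.71 (SE 0.32, adjusted p = 0.0575) and passed in 13 of 24 alternatives, and that between OBC and MSC was -0.0056 (adjusted p = 0.991).

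**Figure D4:**
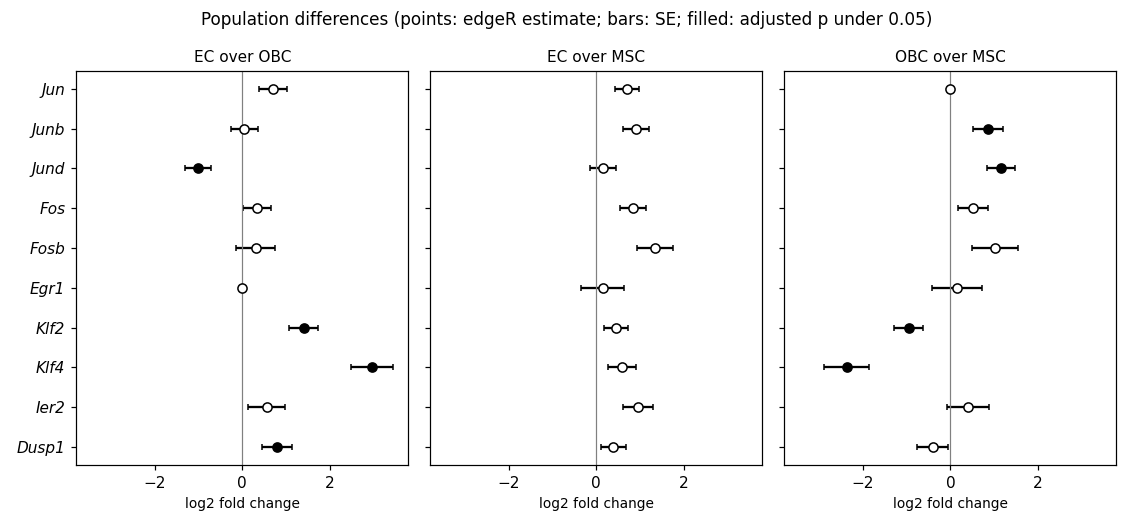
Log2 fold changes between niche populations, both genotypes weighted equally, with their SE (bars; left out under 0.02 in size). Filled points passed an adjusted p of 0.05: Klf4 reached 2.97 for EC over OBC and -2.37 for OBC over MSC, and no gene passed for EC over MSC.

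The FOS genes were highest in EC by mean, without passing. Fos averaged 932 ± 468 CPM in EC, 736 ± 281 in OBC and 515 ± 124 in MSC, and Fosb 243 ± 112, 199 ± 84.3 and 88.6 ± 56. The largest of the differences between EC and MSC was that of Fosb (1.33, SE 0.41, adjusted p = 0.053), and Fos differed by 0.84 (SE 0.30, adjusted p = 0.111). Fosb passed in 11 of 24 alternatives. Ier2 averaged 387 ± 227 in EC, 314 ± 267 in OBC and 181 ± 6.68 in MSC, and its difference between EC and MSC was 0.95 (SE 0.35, adjusted p = 0.119). Egr1 averaged 489 ± 274, 489.9 ± 259 and 424 ± 237 in EC, OBC and MSC, less far apart than its spread within each. Leaving out EC WT 14, the library with the erythroid RNA, let 5 of 10 genes pass between EC and MSC (Jun, Junb, Fos, Fosb and Ier2; 80 of 1224 tested genes then passed), at 0.84 to 1.51. EC markers, of which 8 of 9 tested were higher in EC than in OBC and 7 lower in OBC than in MSC, followed the order of Klf2 and Klf4. Neutrophil markers were, like Jund, highest in OBC, with 5 of 5 lower in EC than in OBC and 5 higher in OBC than in MSC. Between EC and MSC, 3 of 5 neutrophil markers were lower in EC, and Jund differed by 0.15 (SE 0.30) without passing. The part of either in these differences was not tested.

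In LSK cells the 10 genes were scarce and no genotype difference passed. They took 0.0106% to 0.0173% of reads in LSK WT and 0.0106% to 0.018% in LSK Wnt5a. The niche shares were 0.329% to 1.36% of UMIs, from another protocol and table, so the 2 are set side by side without a test. Jun, Junb, Jund, Egr1, Ier2 and Dusp1 had counts enough to be tested, 6 of 10, and 0 passed edgeR's quasi-likelihood test, against 0.0229% of 13098 tested genes (0.00763% higher, 0.0153% lower). None of the 6 had an unadjusted p under 0.05, against 2414 of all tested genes, and DESeq2 and limma voom also called 0 of them. Over all genes the number of calls depended strongly on the setting, with 656 of 13061 by DESeq2, 0 of 13098 by limma voom, 1114 of 13387 by edgeR without LSK Wnt5a 5 and 882 of 13910 with the libraries whose label number has 4 digits. None of the members tested passed under any of these. Of the differences, 3 were positive and 3 negative, with a median of -0.04 against 0.021 over all genes. No member had its groups apart, against 1.26% of tested genes with every Wnt5a library above every WT library and 1.55% with every one below.

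**Figure D5:**
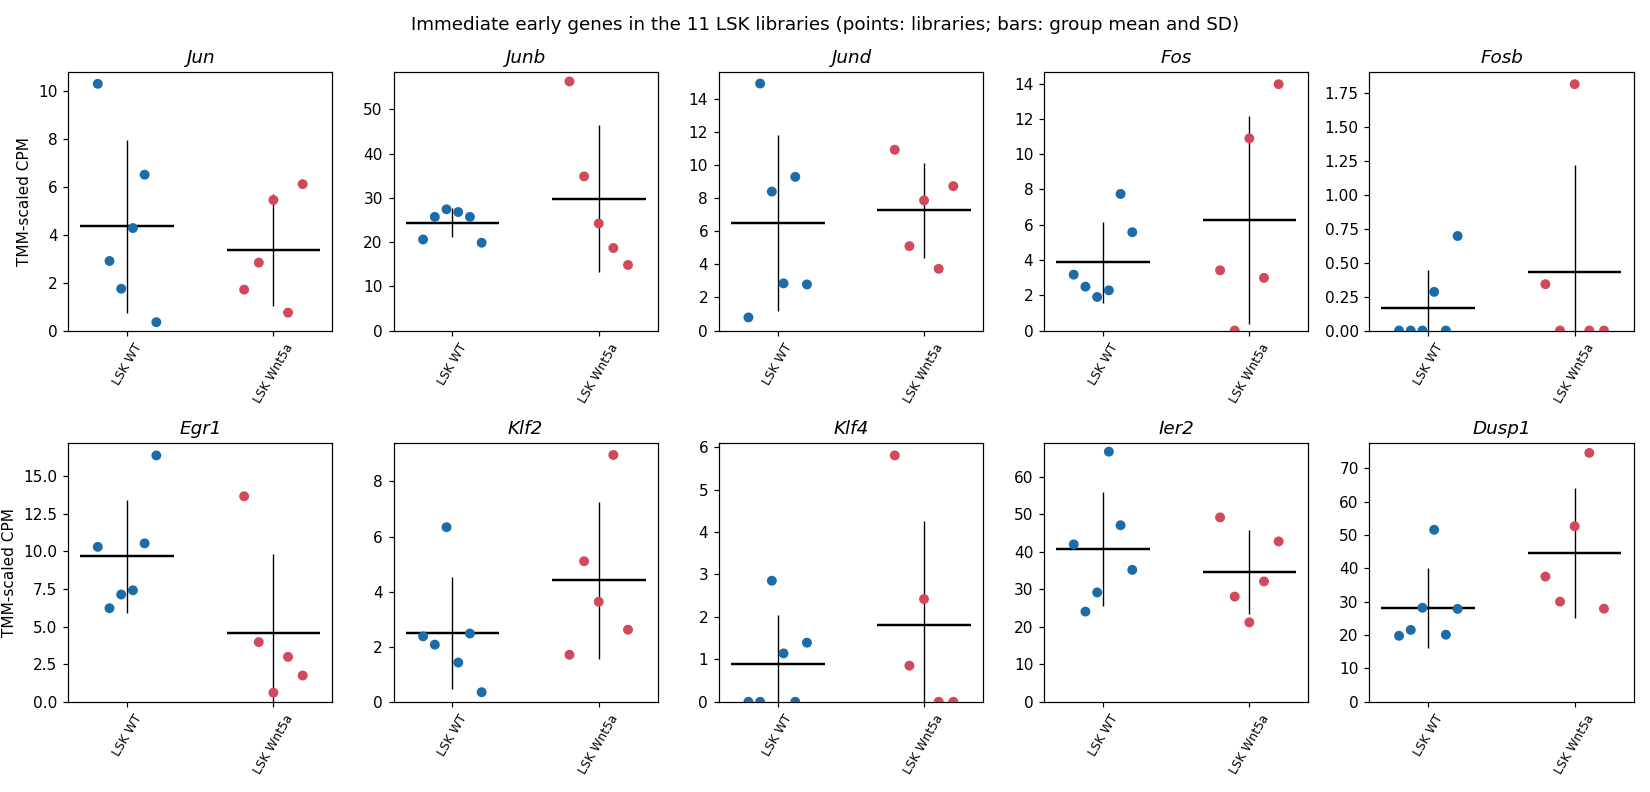
TMM-scaled CPM of the 10 genes in the 11 LSK libraries, WT blue and Wnt5a red, each panel with its own linear axis from 0. Points are libraries, horizontal bars means and vertical bars 1 SD, cut at 0; the groups overlap for every gene, and Egr1 has 4 of 5 Wnt5a libraries below all WT libraries.

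Egr1 gave the largest LSK difference. Its values were 10.3, 6.22, 7.13, 7.41, 10.5 and 16.4 CPM in the 6 WT libraries and 13.7, 3.97, 0.605, 2.99 and 1.75 in the 5 Wnt5a libraries. All but 1 of the Wnt5a libraries lay below the whole WT range, and Wnt5a 1 lay inside it. The difference was -1.02 (SE 0.64, adjusted p = 0.406), with a 95% interval of -2.37 to 0.34. Without LSK Wnt5a 1 it was -1.99 (adjusted p = 0.135). Dusp1 had the smallest p of the 6 genes in LSK (0.0766), with 19.8, 21.6, 28.2, 51.6, 20.1 and 27.9 in WT and 37.6, 30, 52.7, 74.7 and 27.9 in Wnt5a. Its difference, 0.64 (SE 0.34, adjusted p = 0.32), was opposite in sign to that in each niche population, and none of these passed.

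The JUN genes in LSK overlapped between genotypes. Junb had 20.6, 25.7, 27.4, 26.8, 25.7 and 19.9 CPM in WT, a narrow group, and 56.3, 34.9, 24.2, 18.7 and 14.8 in Wnt5a, with 2 libraries above and 2 below the WT range (0.30, SE 0.34, adjusted p = 0.679). Lowest, median and highest values of Jund were 0.792, 5.63 and 14.9 CPM in WT and 3.73, 7.87 and 10.9 in Wnt5a (0.15, SE 0.62, adjusted p = 0.924), and of Jun 0.348, 3.59 and 10.3 CPM in WT and 0.747, 2.83 and 6.11 in Wnt5a (-0.30, SE 0.74, adjusted p = 0.868). Ier2 spanned 24.1, 38.6 and 66.7 CPM in WT and 21.2, 32.1 and 49.2 in Wnt5a (-0.23, SE 0.32, adjusted p = 0.737). Intervals were wide, for Jund -1.17 to 1.47 and for Ier2 -0.89 to 0.44, so differences of about 1 log2 unit were not detectable for Jund.

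Fos, Fosb, Klf2 and Klf4 were under the count minimum in LSK. Lowest, median and highest values of Fos were 1.9, 2.83 and 7.74 CPM in WT and 0, 3.41 and 14 in Wnt5a, and of Klf2 0.348, 2.22 and 6.34 CPM in WT and 1.71, 3.63 and 8.96 in Wnt5a. Klf4 had 0 reads in 3 of 6 WT and 2 of 5 Wnt5a libraries, and Fosb in 4 and 3. Fosb never exceeded 3 reads in a library. When no filter was applied, their differences were 0.62, 1.02, 0.71 and 0.86 (Fos, Fosb, Klf2, Klf4), with SEs of 0.80 to 1.28 and adjusted p of 0.611 to 0.628. Per kilobase of exon, which allows levels of different genes to be set against each other, Ier2 was the most abundant in LSK WT with 26.7 ± 10 CPM per kb (SD, n = 6). Junb followed with 10.6 ± 1.42 and Dusp1 with 8.52 ± 3.64, whose spreads overlap. Jund stood at 3.9, Egr1 at 2.15, and Fos, Jun and Klf2 between 1.36 and 1.64. Klf4 and Fosb were last, at 0.294 and 0.0262. Junb shares 173 exon bases with Prdx2, Jun 232 with Junos and Dusp1 11 with Ergic1, each on the opposite strand, and reads there cannot be told apart without strand. Summed over the LSK libraries, Prdx2 had 6582 reads, Ergic1 1763 and Junos 77. Their part in the Junb, Dusp1 and Jun levels was not tested. LSK markers summed to 2148 to 3261 CPM in WT and 2504 to 2935 in Wnt5a, with none of the 8 at 0. Among markers of other cells, B and plasma cell markers summed to 45216 CPM in LSK Wnt5a 5, against 1920 to 11234 in the other 10 libraries. Neutrophil markers summed to 192 to 293 in WT and 259 to 519.7 in Wnt5a, and EC markers to 418 to 587 and 255 to 392. Of the tested ones, 2 of 3 neutrophil markers had a positive and 7 of 8 EC markers a negative difference, and 0 of either passed. Their part in the LSK values was not tested.

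The wider pathway was followed through 7 lists: other AP-1 and bZIP partners, other immediate early transcription factors, other immediate early effectors, MAPK phosphatases and feedback inhibitors, upstream kinases and factors, other KLF genes, and heat shock chaperones. In the averaged niche comparison 2.18% of all tested genes were higher, and of the chaperones 2 of 8, with a median of 0.59. They were Hsp90aa1 (1.16, SE 0.25, adjusted p = 0.00493) and Hsp90ab1 (0.81, SE 0.23, adjusted p = 0.0346), both cytosolic HSP90 chaperones. Of the other 6 lists 0 genes passed there: partners 0 of 3, transcription factors 0 of 7 (Nr4a1, an orphan nuclear receptor of the early response, 1.35, SE 0.49, adjusted p = 0.136), effectors 0 of 14 (Btg1, an antiproliferative factor, 1.09, SE 0.33, adjusted p = 0.0531), phosphatases 0 of 2, kinases and factors 0 of 4 and KLF genes 0 of 2. The medians were 1.40 for the partners, 0.41 for the kinases and factors, 0.000317 for the phosphatases, -0.15 for the effectors, -0.31 for the transcription factors and -0.36 for the KLF genes. Within MSC, Sgk1, a kinase of the early response, fell (-1.77, SE 0.41, adjusted p = 0.0197), 1 of 14 effectors (0.182% of all tested genes were lower), and nothing else of the 7 lists passed in a single niche population. In LSK 0 genes of the 7 lists passed, with the smallest p for Myc (1.13, SE 0.24, adjusted p = 0.0564), Zfp36l1 (1.41, SE 0.32, adjusted p = 0.0608) and Mafg (-1.42, SE 0.36, adjusted p = 0.0874), 1 from each of 3 lists.

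Between EC and OBC, where Klf2 and Klf4 were higher in EC, 5 of 7 other immediate early transcription factors were higher in EC as well and none lower, with a median of 1.16 against 0.31 over all genes. They included the HLH inhibitors Id3 (1.53, SE 0.34, adjusted p = 0.000188) and Id1 (1.75, SE 0.39, adjusted p = 0.000257), the Notch target Hes1 (1.58, SE 0.45, adjusted p = 0.00327) and Klf6 (1.10, SE 0.35, adjusted p = 0.00858). Of the effectors 4 of 14 were higher, a share like the 28.4% of all tested genes, among them Rhob, a small GTPase (2.48, SE 0.60, adjusted p = 0.000791), and Plk2 (2.85, SE 0.77, adjusted p = 0.00186). Klf7 was higher (2.31, SE 0.50, adjusted p = 0.000150), 1 of 2 KLF genes, and Dusp3 (1.55, SE 0.41, adjusted p = 0.00157), 1 of 2 phosphatases. Kinases and factors gave 1 higher and 1 lower of 4, and partners 0 of 3. The chaperones split, with 4 higher, led by Hspa1a (3.66, SE 0.57, adjusted p = 8.08e-07), and 3 lower, led by Hsp90aa1 (-2.09, SE 0.31, adjusted p = 2.98e-07). Between OBC and MSC, 3 of 7 transcription factors were lower in OBC (Id1, Hes1 and Klf6), with 2 of 14 effectors (Sgk1 and Rhob), Klf7 and Dusp3, while chaperones gave 2 higher and 3 lower. Of all tested genes 19.4% were lower in OBC than in MSC and 12.9% higher, so the share of effectors was not above that of all genes. Between EC and MSC the lists held 3 calls, Gadd45g (1.46, SE 0.40, adjusted p = 0.0218), Hspa1a (1.76, SE 0.35, adjusted p = 0.000307) and Hspa1b (1.75, SE 0.49, adjusted p = 0.0248), all higher in EC, as were 0.728% of all tested genes. Hspa1a and Hspa1b are near-identical copies whose reads can be split or lost between them.

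Within groups, pairs of the 10 genes mostly deviated in the same direction in the niche. Deviations of log2 CPM from the group means gave 42 of 45 positive pair correlations over the 18 niche libraries, with a median Pearson r of 0.35 and a range of -0.19 to 0.87. The highest was that of Klf2 with Klf4 (0.87, Spearman's rho 0.82; 0.82 without the 2 outermost libraries). Such values are descriptions, since genes of a library share its depth and scaling, and EC WT 14 and EC WT 15 enter every pair. By a permutation test 0 of 45 pairs passed after adjustment (smallest adjusted p = 0.0718). In the 11 LSK libraries the 6 tested genes gave 6 of 15 positive pairs, with a median of -0.065 and a range of -0.41 to 0.59, and 0 of 15 passed the same permutation test (smallest adjusted p = 0.78). The genes whose deviations were most like the mean of the members over the 18 niche libraries were Actb (r = 0.76), Ncor1 (r = 0.74), Arpc2 (r = 0.69), Cldn5 (r = 0.69), mt-Rnr1 (r = 0.68). Over the 11 LSK libraries they were Kiz (0.95), Zcchc4 (0.95), Stom (0.90), Ptrhd1 (0.90), Tomm40 (0.89), picked as the highest of many tested genes over few libraries. Members and predicted or unnamed genes were left out of both rankings.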

How the data were processed

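The deposited LSK table holds counts of reads and the deposited niche table counts of UMIs per Ensembl gene, with no normalization. STAR, featureCounts and the mm10 (GRCm38) build are named, per the submitters' processing notes. No version stands beside them. The handling of UMIs, of strand and of the annotation is not given in the sources used here. Groups came from the labels. The niche table's 28 spike-in entries stayed out of the totals. The quasi-likelihood model of edgeR 4.0.16 (R 4.3.3), in its robust form, was fitted after TMM scaling and after filterByExpr (by group; count 10, total 15), in 1 fit of 11 LSK libraries and 1 of 18 niche libraries with 6 group means. To pass, a gene needed an adjusted p below 0.05 (Benjamini-Hochberg, over the 13098 or 1099 genes tested), and every adjusted p of a gene is from edgeR unless named otherwise. The SE is the log2 fold change over the root of edgeR's F. The common biological coefficient of variation was 0.448 in LSK and 0.319 in the niche. The fit was tested on simulated counts, with known changes set in the LSK and EC genotype comparisons only.

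The members, the pathway and marker lists, the alternatives and the rule for named genes were chosen with earlier results of these data known. That rule took all 10 members and, from each pathway list in each comparison, up to 4 genes past the test with the smallest p, or else the 1 with the smallest p, of which the text gives some; the 5 genes most like the members' mean were named for each table. Alternatives were RLE scaling, no filter, DESeq2 1.42.0, limma voom (limma 3.58.1), totals without blood, repeat or mitochondrial genes, each population alone, WT libraries alone, LSK libraries with label numbers of 4 digits alone, and leaving out each library. Correlations were tested with 100000 permutations. Lists of genes were described by counts and medians, without set tests. With TMM-scaled totals, 1 count is worth more CPM in a shallow library, and reads of Smart-seq2 are not independent molecules. Genes were named through a table of Ensembl names, and their positions are from GENCODE on GRCm38; promoter sequences are from RefSeq (GRCm38.p6).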

Additional observations from a re-analysis of the deposited data

Results flagged for a closer look

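Within the LSK groups, 4 of the 20 groups of values (10 genes in 2 genotypes) held a library set apart from the rest of its group by Dixon's criterion at 95%. Each of the 4 was the highest value of its group. The nominal rate of about 1 group in 20 assumes normally distributed values. CPM at low counts are skewed, so no excess over that rate can be read from these 4. Egr1 stood at 13.7 CPM (40 reads) in LSK Wnt5a 1, against 0.605 to 3.97 in the other 4 Wnt5a libraries. Dusp1 stood at 51.6 CPM (181 reads) in LSK WT 4, against 19.8 to 28.2 in the other 5 WT libraries. Klf2 stood at 6.34 CPM (40 reads) in LSK WT 3, the deepest library, against 0.348 to 2.48 in the others. Fosb stood at 1.82 CPM in LSK Wnt5a 3, which is 3 reads. The niche groups have 3 libraries each and could not be examined in this way.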

How the results depend on the processing

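No paired analysis was possible because the niche replicate numbers all differ and the LSK numbers only follow accession order. Depth limits OBC most, where 3 UMIs are 273 CPM in the shallowest library, and the 4 LSK genes under the filter. RLE scaling shifted the median of all genes by -0.21 in MSC and 0.13 between EC and OBC. The number of the 10 genes past the test stayed at 0 in LSK and in OBC under the alternatives run, but the members tested changed with them: 5 to 10 in LSK, 5 of 10 in OBC fitted alone, where Klf4 and Ier2 were not tested, and 9 with DESeq2 in OBC and MSC. It became 1 in MSC fitted alone (77 of 705 tested genes passed). In the averaged comparison it became 0 without a filter (14 of 15930 tested genes) and 2 with limma voom (41 of 1099). Between EC and OBC it became 2 with WT libraries alone (399 of 1099). Between EC and MSC it became 1 with RLE (41 of 1099) and 2 without a filter (79 of 15930). Between OBC and MSC it became 2 without a filter (415 of 15930) and 2 with WT libraries alone (311 of 1099). Leaving out 1 library gave 0 to 3 in EC, 0 to 1 in MSC, 0 to 3 averaged, 0 to 1 for the interaction, 3 to 5 between EC and OBC, 0 to 5 between EC and MSC and 2 to 4 between OBC and MSC. The same omissions left 1209 to 1513 niche genes to test. Of these 2 to 24 passed in EC, 0 to 38 in MSC, 13 to 71 averaged and 2 to 11 for the interaction. Between populations 540 to 678 passed for EC and OBC, 28 to 80 for EC and MSC and 341 to 427 for OBC and MSC. In groups of 3, the 2 libraries left are assumed to vary like the other groups.

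The sign of a log2 difference turned only for values that had not passed the test. With limma voom these were 0.14 for Jun (LSK genotype), -0.11 for Junb (EC over OBC) and 0.0767 for Jun (OBC over MSC). With RLE scaling these were -0.0150 for Egr1 (OBC genotype), -0.17 for Egr1 (MSC genotype), -0.0774 for Klf2 (MSC genotype) and 0.13 for Egr1 (EC over OBC). With no low-count filter these were -0.0644 for Egr1 (OBC genotype), -0.0311 for Egr1 (MSC genotype), 0.61 for Egr1 (EC over OBC), -0.26 for Egr1 (OBC over MSC) and -0.00380 for Ier2 (OBC over MSC). With DESeq2 these were -0.13 for Egr1 (OBC genotype), -0.0793 for Egr1 (MSC genotype), -0.0795 for Klf2 (MSC genotype) and 0.0867 for Egr1 (EC over OBC). With blood and mitochondrial genes left out these were -0.0238 for Egr1 (OBC genotype) and 0.0359 for Jun (OBC over MSC). With WT libraries alone these were -0.0124 for Junb (EC over OBC), -0.21 for Egr1 (EC over MSC), 0.17 for Jun (OBC over MSC) and -0.77 for Ier2 (OBC over MSC). When 1 library was left out, it turned for Junb (LSK genotype, -0.0662 to 0.47), Jund (LSK genotype, -0.0600 to 0.55), Junb (EC genotype, -0.0460 to 1.10), Fos (EC genotype, -0.12 to 1.30), Fosb (EC genotype, -0.0737 to 1.15), Jun (OBC genotype, -0.32 to 0.25), Junb (OBC genotype, -0.12 to 0.53), Fosb (OBC genotype, -0.20 to 0.85), Egr1 (OBC genotype, -0.47 to 0.52), Dusp1 (OBC genotype, -1.87 to 0.0421), Jun (MSC genotype, -0.0129 to 0.83), Fos (MSC genotype, -0.0245 to 0.41), Fosb (MSC genotype, -0.13 to 0.63), Egr1 (MSC genotype, -0.51 to 0.21), Klf2 (MSC genotype, -0.38 to 0.45), Junb (EC over OBC, -0.23 to 0.31), Fos (EC over OBC, -0.12 to 0.60), Fosb (EC over OBC, -0.0758 to 0.61), Egr1 (EC over OBC, -0.22 to 0.28), Jund (EC over MSC, -0.16 to 0.47), Egr1 (EC over MSC, -0.0442 to 0.45), Jun (OBC over MSC, -0.20 to 0.32), Egr1 (OBC over MSC, -0.0733 to 0.41) and Ier2 (OBC over MSC, -0.47 to 0.68). The cause was not tested.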
